A study of Sciaenops ocellatus with 36 samples.

Results

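The 47 genes described here encode inflammation, NF-kB and cytokine signalling proteins, followed in a marine fish, the red drum Sciaenops ocellatus, exposed to crude oil. They were chosen by symbol, as the rows whose symbol equals a listed member in all 6 deposited count tables. Of the 47 symbols, 46 matched a row among the 56346 rows of each table. The symbol IL8 matched none, and the row of CXCL8, the current name of the same chemokine, was at 0 in all 29 libraries used. By role the 47 fall into 4 prostaglandin and leukotriene enzymes, 13 cytokines, chemokines and their receptors, 9 NF-kB proteins and regulators, 6 innate sensors and adaptors, 9 JAK-STAT proteins, 4 interferon regulatory factors and 2 C/EBP factors.

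Cyclooxygenases turn arachidonic acid into the precursor of the prostaglandins, lipid signals of inflammation, fever and vessel tone. Cytokines bind surface receptors that act through JAK kinases and STAT transcription factors, while Toll-like receptors and tumour necrosis factor receptors release the Rel proteins of the NF-kB family from their cytoplasmic inhibitors. Each of these routes switches on its own brakes, among them the SOCS proteins, IkB alpha and A20, so that a higher level of a brake often accompanies an active route. In fish larvae these genes are read in whole animals, in which epithelia, vessels and the first macrophages and neutrophils all contribute transcripts.

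RNA was sequenced from whole embryos and larvae at 24, 48 and 72 hours post-fertilization (hpf), each library a pool of 30 animals. Source oil, a fresh crude standing in for that of the Deepwater Horizon well, was given at 0.27% and weathered oil collected from a slick at 2.50%, the concentrations as the labels give them; controls had none. All eggs came from captive brood stock and had been disinfected with formalin, so every group, controls included, shares that treatment. The values come from 29 libraries in 10 groups: source-oil animals of 24 and 72 hpf, slick-oil animals of all 3 ages, source-series controls of all 3 ages and slick-series controls of 24 and 48 hpf. Each group has 3 libraries, apart from the slick-series controls at 24 hpf, with 2. Library numbers serve here as names, and whether they pair the libraries was not settled. The labels name no spawn or tank behind a pool, so p-values measure only the spread between these pools, which may be technical.

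Total counts ran from 4771973 to 5880716 in the table of source oil at 24 hpf and from 2532771 to 3280939 in the other libraries, where 3 counts equal 0.914 to 1.18 CPM (counts scaled to library size). In that first table counts were assigned to symbols in another way: PTGES, NFKB1, NFKBIE, SOCS2 and CEBPD had counts there alone, and IL6ST, IRF1, CEBPB and NOD1 were at 0 there but had counts in other tables. Its levels and responses were therefore not compared with those of other ages. Slick oil at 72 hpf was compared with the source-series controls, the same 3 libraries that serve source oil. In the headers, the library numbers of the slick-oil columns form a range apart from those of the controls, and so do those of the source-oil columns. The labels name no batch behind these numbers, so neither oil can be told apart from whatever the numbers stand for. CYP1A1, the aromatic-hydrocarbon oxidase used as a check of exposure, was higher with oil in all 5 comparisons, by 3.57 to 4.01 on the log2 scale.

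Most of the classical inflammatory cytokines and their receptors had no counts in any of the 29 libraries. IL1B, IL6, IL10, TNF and LTA, the ligands, were at 0, as were the receptors IL1R1, IL6R, TNFRSF1A and CCR7 and the nuclear IkB protein BCL3. A count of 0 allows up to 3 counts a library, and it also fits a symbol to which no fish transcript was assigned, so these 10 symbols were not detectable here rather than shown to be silent. Of the 36 members with counts, 27 passed the filter on low counts in at least 1 comparison of oil with control. The 9 that never did were the sensors TLR3, TLR5 and NOD1, the kinase IRAK4, the prostaglandin E synthase PTGES, the 5-lipoxygenase ALOX5, the IkB protein NFKBIE, the virus-responsive IRF7 and the JAK inhibitor SOCS1. None of the 9 exceeded 13 counts in any library.

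Source oil at 72 hpf had the most members called: of 23 tested, 12 were higher and 1 was lower at an adjusted p under 0.05 (edgeR quasi-likelihood test). Over all 8983 genes tested in that comparison, 20.4% were called (11.4% higher and 9.04% lower), against 56.5% of the members tested. In whole-animal RNA, more cells of a type and more RNA per cell cannot be told apart. The members' median log2 fold change was 0.61, beside 0 for all genes tested. Slick oil at the same age, against the same controls, had 4 members higher and 1 lower of 20 tested, with 18.6% of all genes called (8.55% higher and 10.1% lower); at 25% of members this is near the background. Source oil at 24 hpf had 4 members higher and 0 lower of 23 tested (all genes 5.42%, with 3.98% higher and 1.44% lower), slick oil at 24 hpf had 1 higher and 0 lower of 19 (all genes 2.19%, with 1.62% higher and 0.569% lower), and slick oil at 48 hpf had 3 higher and 0 lower of 18 (all genes 2.68%, with 1.92% higher and 0.759% lower). The members' medians in those 3 comparisons were 0.07, 0.03 and 0.14, beside -0.01, 0 and 0 for all genes. A member that passed the filter only through counts in the oil libraries had to differ, so these shares describe the tested members and support nothing further.

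**Figure D1:**
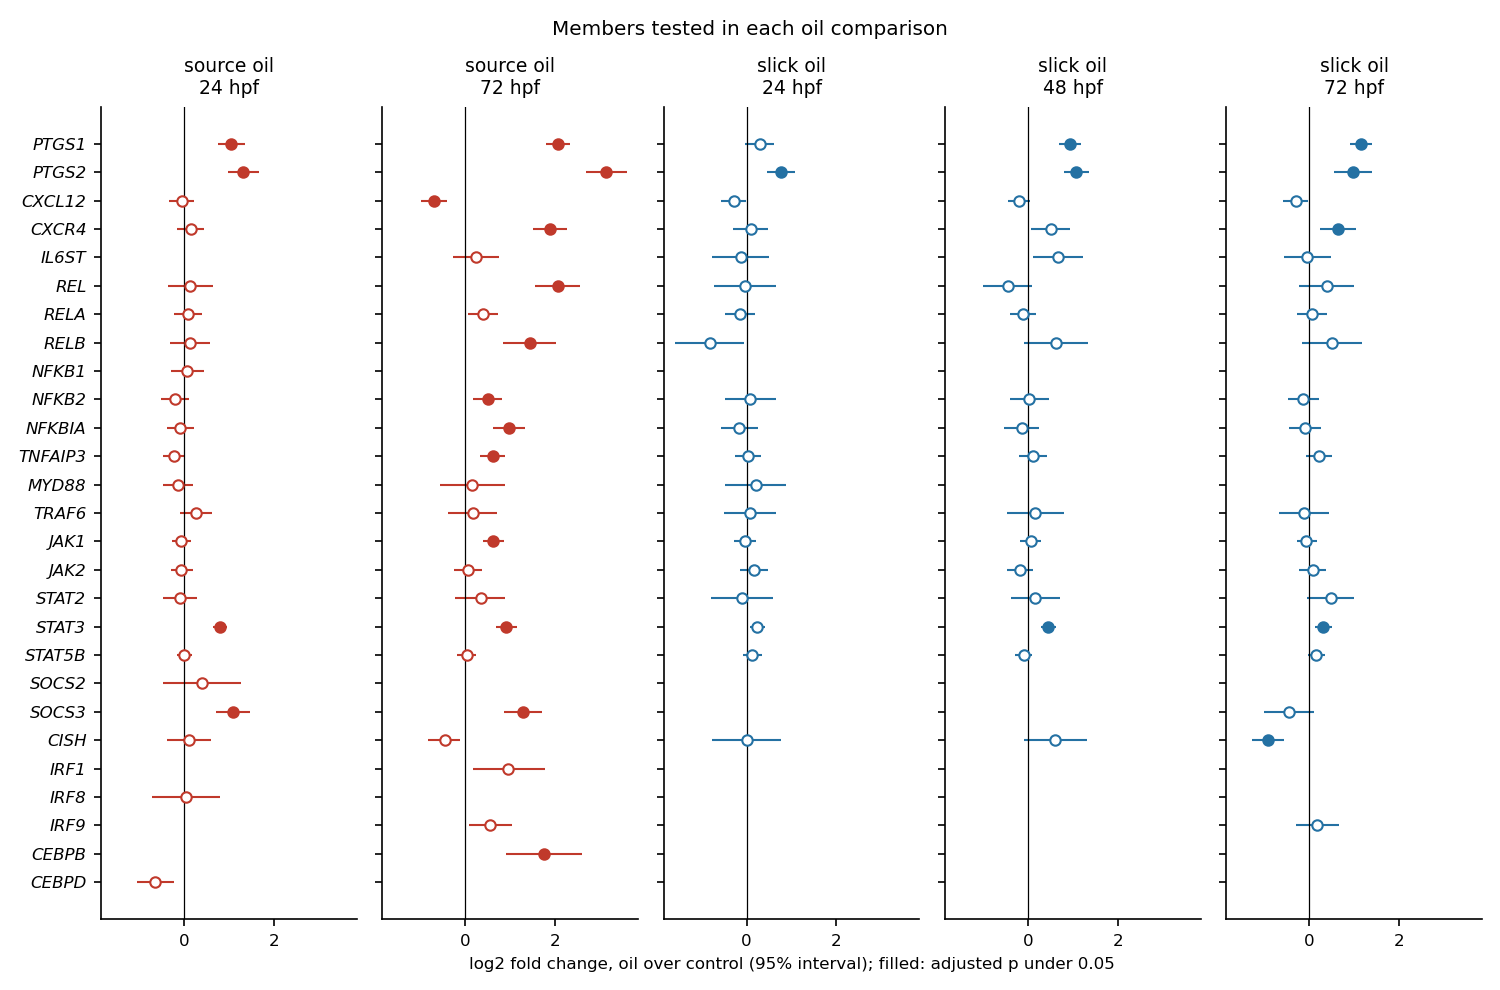
Log2 fold change of oil over control for each member tested (rows), in 5 panels by oil and age; bars are 95% intervals and filled points have an adjusted p under 0.05. Filled points are most frequent in source oil at 72 hpf, with 13, while PTGS2 is filled in all 5 panels and PTGS1 and STAT3 in 4.

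The cyclooxygenases were the members called most often. PTGS2, the inducible cyclooxygenase, was higher in all 5 oil comparisons and PTGS1, the form usually called constitutive, in 4. At 72 hpf the 3 control libraries held 124, 60.9 and 69.9 CPM of PTGS2, the 3 source-oil libraries 744, 957 and 424 CPM, and the 3 slick-oil libraries 111, 125 and 255 CPM. Every source-oil library lay above every control and every slick-oil library, whereas slick-oil library 1 lay below control library 1 and library 2 barely above it. Source oil raised PTGS2 8.8-fold (log2 3.14, 95% interval 2.69 to 3.59, edgeR adjusted p = 2.94e-11), and no alternative run lost that call. With slick oil the log2 fold change was 0.98 (95% interval 0.56 to 1.40, edgeR adjusted p = 0.000689). That call rested largely on slick-oil library 3, without which the log2 fold change was 0.5 (adjusted p = 0.0371), and DESeq2 did not make it (adjusted p = 0.204).

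PTGS1 separated the groups more cleanly. Controls at 72 hpf held 36.5, 30.5 and 30.4 CPM, source-oil libraries 137, 142 and 110 CPM and slick-oil libraries 71, 65 and 75.2 CPM. The 3 groups did not overlap, and slick oil stood between the others. PTGS1 rose 4.19-fold with source oil (log2 2.07, 95% interval 1.80 to 2.33, adjusted p = 5.46e-12) and 2.21-fold with slick oil (log2 1.15, 95% interval 0.90 to 1.39, adjusted p = 1.75e-08). At 48 hpf slick oil took it from 29.2, 28.7 and 33.2 CPM to 52.8, 56.2 and 61.9 CPM, a log2 fold change of 0.94 (adjusted p = 0.000177). PTGS2 at that age went from 33, 32.2 and 42.9 to 85, 69.6 and 69.3 CPM (log2 1.08, adjusted p = 0.000108). In each case all oil libraries lay above all controls.

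At 24 hpf PTGS2 was higher with source oil, from 10.3, 7.75 and 8.04 CPM to 25.2, 18.4 and 22 CPM (log2 1.31, adjusted p = 1.31e-05). PTGS1 in the same embryos went from 19.5, 14 and 18.2 to 32.4, 34 and 42.2 CPM (log2 1.05, adjusted p = 2.23e-05). With slick oil at 24 hpf PTGS2 stood at 56.6, 43.3 and 55.2 CPM against 33.3 and 28.1 CPM in the 2 controls (log2 0.76, adjusted p = 0.00358), without overlap. That last call was lost without either control (adjusted p = 0.0501 and 0.236) or without oil library 1 (0.0604). PTGS1 with slick oil at 24 hpf had a log2 fold change of 0.29 (adjusted p = 0.489). The other enzymes of this group, PTGES and ALOX5, had at most 7 counts in a library and were not tested.

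**Figure D2:**
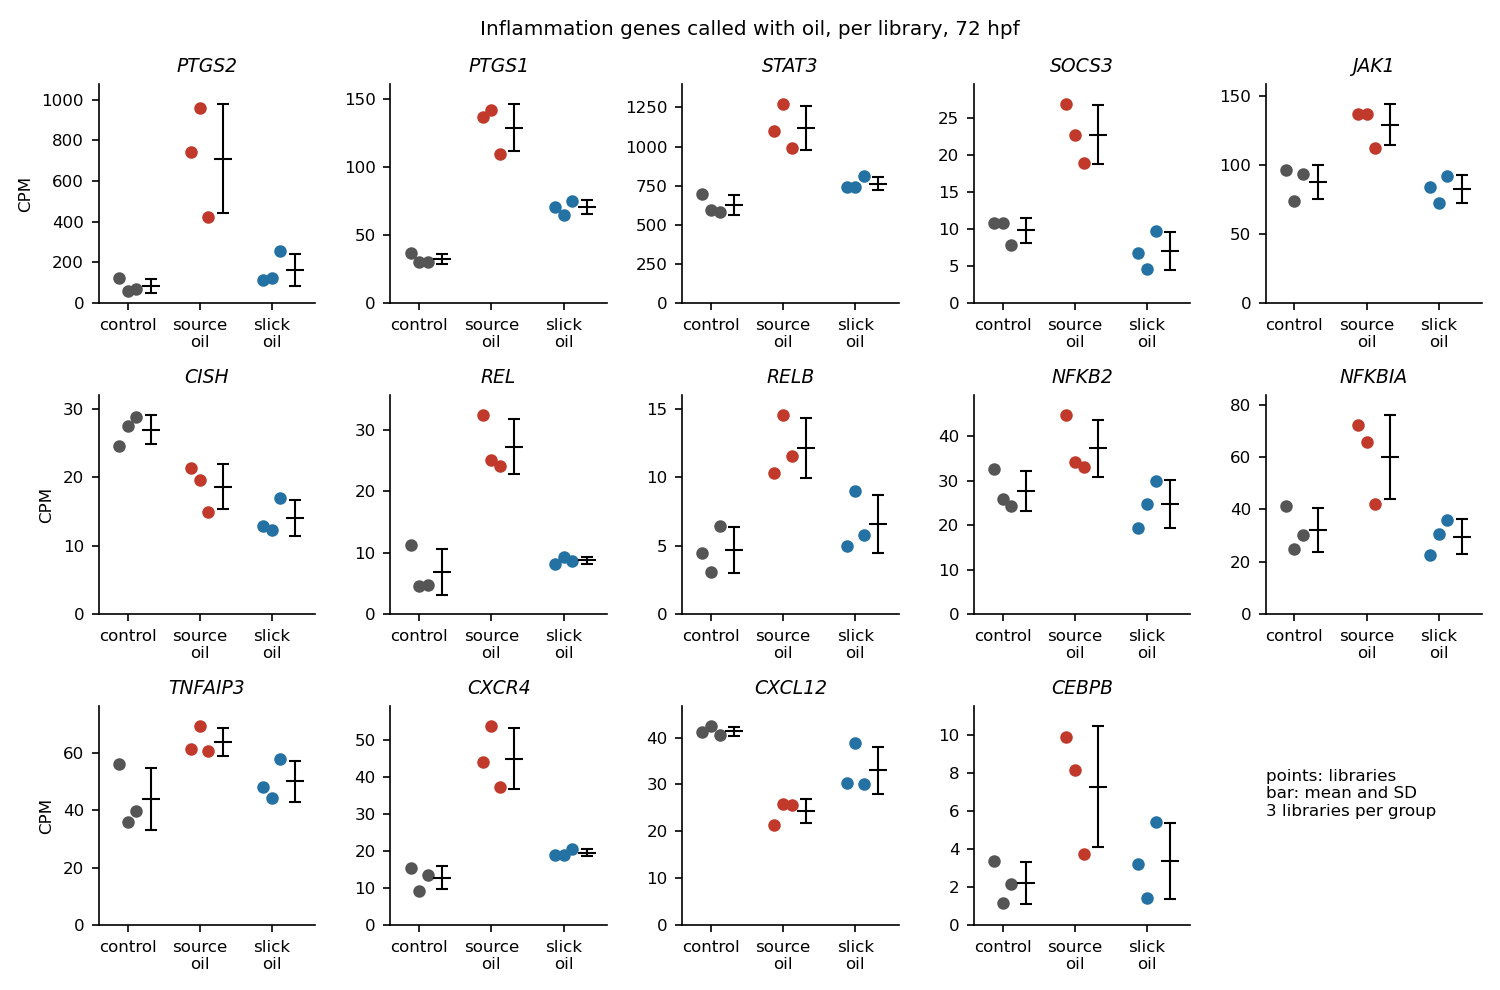
Level in CPM, on a linear axis from 0, of the 14 members called in at least 1 oil comparison, in each of 3 control, 3 source-oil and 3 slick-oil libraries at 72 hpf; points are libraries and bars the mean with its SD. Source-oil points lie above all controls in 12 panels and below them in CXCL12 and CISH. Slick-oil points mostly overlap the controls, but PTGS1, STAT3 and CXCR4 lie wholly above them and CXCL12 and CISH wholly below. The panels hold members picked by calls on these same libraries, so their separation was largely set by that choice.

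In the JAK-STAT group the transcription factor STAT3, through which receptors of the interleukin-6 family signal, was higher with source oil at both ages and with slick oil at 48 and 72 hpf. At 72 hpf it stood at 698, 592 and 584 CPM in controls, at 1100, 1270 and 994 CPM with source oil and at 744, 739 and 810 CPM with slick oil. The 3 groups did not overlap. The log2 fold change was 0.91 with source oil (95% interval 0.69 to 1.14, adjusted p = 3.93e-07) and 0.32 with slick oil (95% interval 0.14 to 0.50, adjusted p = 0.0105). The slick-oil call was lost without control library 3 (adjusted p = 0.0818) or oil library 3 (0.0726). At 48 hpf slick oil took STAT3 from 312, 345 and 343 to 453, 460 and 428 CPM (log2 0.45, adjusted p = 0.00329), and at 24 hpf source oil took it from 193, 215 and 223 to 356, 376 and 373 CPM (log2 0.81, adjusted p = 9.66e-08). No oil library overlapped the controls in either.

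SOCS3, the feedback inhibitor that STAT3 induces, was called higher with source oil at 24 and 72 hpf and was not called with slick oil at 72 hpf. At 24 hpf it went from 8.86, 8.29 and 9.02 to 14.8, 18 and 23.5 CPM (log2 1.09, adjusted p = 0.000337). At 72 hpf controls held 10.8, 10.8 and 7.88 CPM, source-oil libraries 26.9, 22.7 and 19 CPM and slick-oil libraries 6.78, 4.67 and 9.76 CPM. All source-oil libraries lay above all controls, while the slick-oil libraries lay lower and overlapped them. The log2 fold changes at 72 hpf were 1.28 for source oil (95% interval 0.86 to 1.71, adjusted p = 4.44e-05) and -0.44 for slick oil (95% interval -1 to 0.12, adjusted p = 0.29). In the slick-oil comparisons at 24 and 48 hpf SOCS3 had 3 to 16 counts a library and was not tested.

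JAK1, the kinase paired with many cytokine receptors, was called once, with source oil at 72 hpf, where 96, 73.6 and 93.5 CPM in controls compared with 137, 137 and 112 CPM in oil (log2 0.62, adjusted p = 0.000243). Slick-oil larvae held 83.8, 72.1 and 92.2 CPM, within the controls' range apart from library 2. CISH, a SOCS-family inhibitor of receptors that use STAT5, went the other way. Controls at 72 hpf held 24.6, 27.4 and 28.7 CPM, slick-oil libraries 12.8, 12.2 and 17 CPM and source-oil libraries 21.3, 19.5 and 14.9 CPM, so that both oil groups lay below all controls. CISH fell with slick oil by 0.91 on the log2 scale (adjusted p = 0.000297). With source oil its log2 fold change was -0.46 (adjusted p = 0.0554), on the other side of the threshold without control library 1 (-0.54, adjusted p = 0.0412), without oil library 1 (-0.58, adjusted p = 0.0494) and with no filter on low counts (-0.47, adjusted p = 0.0499). JAK2, STAT2 and STAT5B passed the test in no oil comparison, with log2 fold changes between -0.18 and 0.48, and neither did SOCS2 in the only table where it had counts.

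NF-kB members were called in source oil at 72 hpf and in no other comparison of oil with control: 5 of the 6 tested were higher (all genes 11.4%), with a median log2 fold change of 0.79 beside 0 for all genes. Of these, RELB passed the filter on low counts only with the help of the oil libraries. REL, the c-Rel subunit of lymphoid and myeloid cells, held 11.2, 4.63 and 4.66 CPM in controls, 32.4, 25.2 and 24.2 CPM with source oil and 8.2, 9.33 and 8.68 CPM with slick oil. Every source-oil library lay above all others. Control library 1 was the highest control, above all slick-oil libraries, while the remaining controls lay below them. REL rose 4.16-fold with source oil (log2 2.06, 95% interval 1.55 to 2.56, adjusted p = 4.83e-07). With slick oil the log2 fold change was 0.39 (95% interval -0.22 to 0.99, adjusted p = 0.407), but 0.92 (adjusted p = 0.0424) without control library 1.

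RELB, the subunit of the non-canonical route, held 4.47, 3.08 and 6.45 CPM in controls at 72 hpf and 10.3, 14.5 and 11.5 CPM with source oil, without overlap (log2 1.43, adjusted p = 0.000574). The controls had 12, 8 and 18 counts and the source-oil libraries 26, 41 and 31. At these counts RELB passed the filter only with the help of the oil libraries, so its separation supports nothing further. With slick oil it held 4.99, 8.97 and 5.79 CPM, overlapping the controls (log2 0.51, adjusted p = 0.307). NFKBIA, which encodes the inhibitor IkB alpha and is itself an NF-kB target, held 41.3, 24.7 and 30.1 CPM in controls and 72.3, 65.6 and 42 CPM with source oil. The lowest oil library lay just above the highest control (log2 0.97, 95% interval 0.61 to 1.33, adjusted p = 0.000169). With slick oil NFKBIA held 22.5, 30.5 and 35.8 CPM, among the controls (log2 -0.09, adjusted p = 0.784).

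TNFAIP3, the ubiquitin-editing inhibitor A20, ranged from 35.8 to 56.2 CPM in controls, from 60.6 to 69.2 CPM with source oil and from 44.1 to 57.9 CPM with slick oil. It rose with source oil by 0.61 on the log2 scale (adjusted p = 0.00201). With slick oil it had a log2 fold change of 0.22 (adjusted p = 0.318), which was 0.42 (adjusted p = 0.044) without control library 1. NFKB2, the precursor of p52, ranged from 24.4 to 32.7 CPM in controls and from 33.1 to 44.7 CPM with source oil (log2 0.5, adjusted p = 0.0235). The NFKB2 call was lost with DESeq2 (adjusted p = 0.112), without control library 2 or 3 (0.0807 and 0.118) and without oil library 1 (0.195). RELA, the main transactivating subunit, did not pass (log2 0.39, adjusted p = 0.104). Control library 1 held as much of RELA as the highest oil library, 47.6 CPM, and without that control the log2 fold change was 0.65 (adjusted p = 0.00399).

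Among chemokines and receptors, CXCR4 and its ligand CXCL12, the pair that guides migrating leukocytes, germ cells and precursor cells, moved in opposite directions with source oil at 72 hpf. CXCR4 held 15.3, 9.25 and 13.6 CPM in controls, 43.9, 53.6 and 37.2 CPM with source oil and 18.9, 19 and 20.6 CPM with slick oil. The 3 groups did not overlap. It rose by 1.89 with source oil (95% interval 1.51 to 2.26, adjusted p = 1.58e-08) and by 0.64 with slick oil (95% interval 0.24 to 1.04, adjusted p = 0.02) on the log2 scale. The slick-oil call was lost with DESeq2 (adjusted p = 0.105) and without control library 2 (0.144), oil library 2 (0.0585) or oil library 3 (0.0735).

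CXCL12 held 41.3, 42.4 and 40.5 CPM in controls at 72 hpf, 21.3, 25.9 and 25.6 CPM with source oil and 30.3, 38.8 and 30 CPM with slick oil. Both oil groups lay below all controls. It fell with source oil by 0.69 on the log2 scale (95% interval -0.98 to -0.40, adjusted p = 0.000695) and had a log2 fold change of -0.3 with slick oil (adjusted p = 0.128). At 24 and 48 hpf neither gene passed in any comparison, with log2 fold changes of 0.09 to 0.51 for CXCR4 and -0.29 to -0.05 for CXCL12. IL6ST, the signal-transducing subunit gp130 shared by interleukin-6 family receptors, passed in no oil comparison, from -0.13 to 0.67 on the log2 scale.

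No interferon regulatory factor and no innate sensor or adaptor was called with oil. IRF1, an interferon-induced activator, held 2.6, 1.16 and 4.3 CPM in controls at 72 hpf and 4.74, 5.68 and 4.83 CPM with source oil, without overlap (log2 0.96, 95% interval 0.16 to 1.77, adjusted p = 0.0823). With 7, 3 and 12 counts in controls and 12, 16 and 13 with source oil, IRF1 passed the filter through the oil libraries. IRF9, the DNA-binding part of the complex formed after type I interferon, held 9.67, 8.09 and 8.96 CPM and 13.4, 9.94 and 14.5 CPM in the same groups, also without overlap (log2 0.56, adjusted p = 0.0915). MYD88 and TRAF6, adaptors below the Toll-like receptors, had log2 fold changes from -0.14 to 0.27 where tested. CEBPB, an activator of acute-phase and myeloid genes, held 3.35, 1.16 and 2.15 CPM in controls at 72 hpf and 9.88, 8.16 and 3.72 CPM with source oil, from 3 to 9 and 10 to 25 counts a library (log2 1.75, adjusted p = 0.00292). At these counts CEBPB passed the filter through the oil libraries, and it was not tested with slick oil, where it held 3.21, 1.44 and 5.42 CPM. CEBPD, a related factor with counts only in the 24 hpf source-oil table, went from 11.8, 9.91 and 13.9 to 8.64, 8.22 and 5.71 CPM (log2 -0.64, adjusted p = 0.0626).

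The oils were contrasted at 72 hpf in a joint fit of the 9 libraries. The concentrations differ, 0.27% against 2.50%, and the larvae of the oils belong to different series. Oil, concentration, series and the separate library numbering of the slick-oil columns cannot be told apart. CYP1A1 differed by 0.05 on the log2 scale between slick-oil and source-oil larvae (SE 0.14, adjusted p = 0.882). Of 23 members tested, 10 were lower with slick oil than with source oil and 0 were higher, against 16.0% of all genes called (7.33% higher and 8.68% lower) and 43.5% of the members. The members' median difference was -0.61, slick oil minus source oil, beside 0.01 for all genes. Because both oil groups were set against the same controls, their separate fold changes share the error of those controls, but the contrast itself compares the oil libraries directly.

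PTGS2 differed most, by -2.14 on the log2 scale (95% interval -2.61 to -1.66, adjusted p = 1.56e-07), followed by SOCS3 at -1.7 (95% interval -2.17 to -1.24, adjusted p = 3.5e-06) and REL at -1.65 (95% interval -2.10 to -1.20, adjusted p = 3.5e-06). CXCR4 differed by -1.22, NFKBIA by -1.04, PTGS1 by -0.9, JAK1 by -0.66 and STAT3 by -0.57. In every called member all slick-oil libraries lay below all source-oil libraries. The same held for RELA, TNFAIP3 and IRF1, which were not called, so this separation does not set the called members apart. RELB, at -0.9, and NFKB2, at -0.61, were also called, but RELB lost the call without source-oil library 2 (adjusted p = 0.129), slick-oil library 1 (0.107) or slick-oil library 3 (0.0673), and NFKB2 without library 1 of either oil (0.0874 and 0.0842). In PTGS1, PTGS2, CXCR4 and STAT3 both oils had been called higher than control, so by those calls these 4 differed in the size of the rise. The slick-oil calls of PTGS2, CXCR4 and STAT3 were, however, lost under some alternatives, and that of PTGS1 is the firmest. In SOCS3, REL, RELB, NFKB2, NFKBIA and JAK1 only the source-oil rise had passed, and the direct contrast was called.

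Other members did not pass the contrast, and their intervals show how large a difference remains possible. CISH differed by -0.42 (95% interval -0.82 to -0.03, adjusted p = 0.138), CXCL12 by 0.42 (0.12 to 0.72, adjusted p = 0.0502) and TNFAIP3 by -0.37 (-0.64 to -0.09, adjusted p = 0.0603). CEBPB, the least abundant of these, differed by -1.12 (95% interval -1.92 to -0.31, adjusted p = 0.0519). CXCL12, TNFAIP3 and CEBPB lay so near the threshold that leaving out a single library brought each of them past it. JAK2, STAT2 and STAT5B differed by 0.05 to 0.17.

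**Figure D3:**
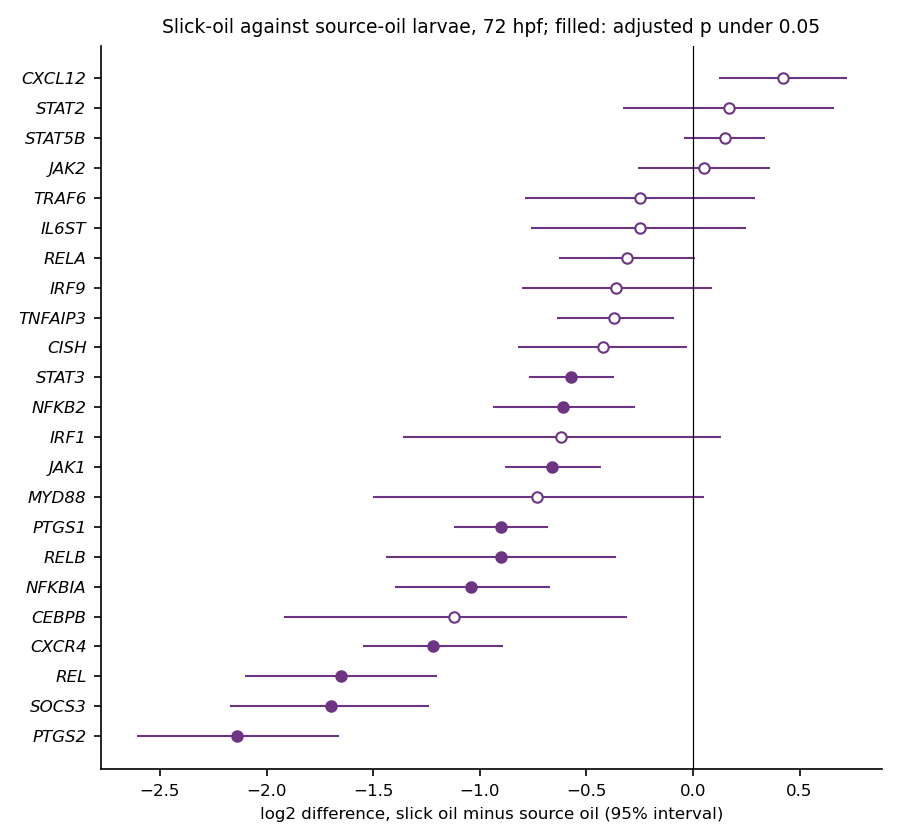
Log2 difference at 72 hpf, slick oil minus source oil, of the 23 members tested (rows, sorted), with 95% intervals; filled points have an adjusted p under 0.05. The 10 filled points all lie left of 0, from STAT3 at -0.57 to PTGS2 at -2.14, and the 4 members right of 0 are open.

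Between 48 and 72 hpf the slick-oil response of 21 members was compared in a joint fit, in which 7.17% of all genes were called (2.96% higher and 4.21% lower). CISH was the only member called, with a response lower by 1.54 on the log2 scale at the later age (adjusted p = 0.0123). CISH, however, also differed between the control series at 48 hpf: the source series held 9.08, 7.93 and 5.75 CPM and the slick series 2.86, 2.1 and 3.36 CPM, without overlap (log2 -1.46, slick minus source series, adjusted p = 0.0143). It was the only one of 18 members called there, with 4.45% of all genes called (2.04% higher and 2.41% lower), and the call was lost without library 2 of either series (adjusted p = 0.0655 and 0.0798). The slick-oil fall of CISH at 72 hpf was measured against source-series controls, and the part that the series plays in it was not tested. PTGS2, CXCL12 and SOCS3 were not called between the series (edgeR adjusted p = 0.0742, 0.206 and 0.192). Their log2 differences, slick minus source series, were 0.52 (95% interval 0.18 to 0.86), -0.25 (-0.49 to -0.02) and -0.96 (-1.82 to -0.09). Slick-oil changes of these genes at 72 hpf were also measured against source-series controls, and the part of the series was not tested. PTGS1, PTGS2 and STAT3 had slick-oil responses at 72 and 48 hpf that differed by 0.19 (95% interval -0.16 to 0.54), -0.12 (-0.84 to 0.59) and -0.15 (-0.40 to 0.10).

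Several members also changed with age in control animals. From 48 to 72 hpf in the source series, 9 members were higher and 1 lower of 21 tested (members 47.6%, all genes 30.8%, with 17.2% higher and 13.6% lower). PTGS2 went from 30.3, 25 and 19 CPM to 124, 60.9 and 69.9 CPM (log2 1.78, adjusted p = 6.95e-07), so that unexposed larvae at 72 hpf held more of it than unexposed animals at 48 hpf. CISH rose from 9.08, 7.93 and 5.75 to 24.6, 27.4 and 28.7 CPM (log2 1.82), and IRF9 from 3.03, 0.915 and 1.35 to 9.67, 8.09 and 8.96 CPM (log2 2.34). STAT3 rose by 0.93, SOCS3 by 1.28, NFKB2 by 1.11, IL6ST by 0.9, NFKBIA by 0.53 and JAK1 by 0.47, and CXCL12 fell by 0.67. The calls of IL6ST and NFKBIA were lost with DESeq2 (adjusted p = 0.085 and 0.0969). That of IL6ST was also lost without library 2 at 48 hpf (0.0717) or library 1 at 72 hpf (0.0885), and that of NFKBIA without library 1 or 2 at 48 hpf (0.0849 and 0.106) or library 1 or 3 at 72 hpf (0.231 and 0.0522). PTGS1 did not pass with age (log2 -0.06, 95% interval -0.34 to 0.22).

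From 24 to 48 hpf in the slick-series controls, with 2 libraries at the younger age, 3 members were higher and 3 lower of 19 tested, a share of 31.6% beneath the 47.0% of all genes (23.7% higher and 23.3% lower). CXCR4 fell from 20.3 and 19.3 CPM to 8.25, 10.5 and 13.1 CPM (log2 -0.93, adjusted p = 0.000786), and MYD88 from 4.07 and 9.81 CPM to 1.59, 3.5 and 1.86 CPM (log2 -1.61, adjusted p = 0.0025). The 2 young MYD88 libraries differed, and without library 3 the log2 difference was -0.83 (adjusted p = 0.327). RELB fell by 1.03, and CXCL12, NFKB2 and STAT5B rose by 0.37, 0.64 and 0.24. The calls of those 4 genes were lost without either 24 hpf control and with DESeq2, and each was also lost without at least 1 of the 48 hpf libraries.

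**Figure D4:**
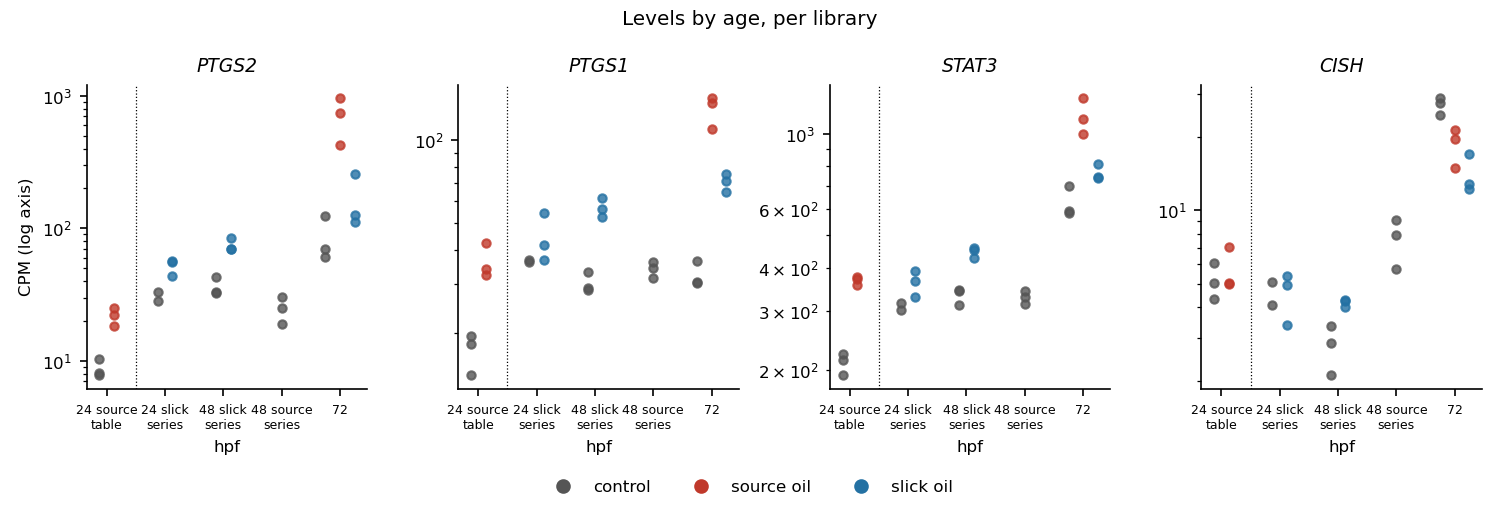
Level in CPM, on a log axis, of PTGS2, PTGS1, STAT3 and CISH in each library by age in hpf; grey points are controls, red source oil and blue slick oil, and the dotted line sets apart the 24 hpf source-oil table, whose levels are not comparable with the others. In PTGS2, PTGS1 and STAT3 the oil points lie above the controls of their age, apart from 1 slick-oil point of PTGS2 at 72 hpf, and CISH controls rise from 2.77 and 7.59 CPM (means of the series at 48 hpf) to 26.9 CPM at 72 hpf.

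The neighbours of the members on each route were followed in 232 other genes, of which 230 matched a row. With source oil at 72 hpf, 67 of them were tested, 20 were higher and 2 lower, or 32.8% called beside 20.4% of all genes (11.4% higher and 9.04% lower). The prostaglandin list had the largest share of the 7 lists, 5 higher and 2 lower of 8. Outside it 15 of 59 were higher and 0 lower, a share of 25.4%. PLA2G4A, the phospholipase that frees arachidonic acid, rose by 1.95, the carbonyl reductase CBR1, which reduces prostaglandin E2, by 1.3 and the thromboxane synthase TBXAS1 by 1.31 on the log2 scale. LTA4H, the leukotriene A4 hydrolase, fell by 0.55. Slick oil at 72 hpf called the same number, 5 higher and 2 lower of 8 (all genes 18.6%): CBR1 rose by 1.12, the prostaglandin E synthase PTGES2 by 0.85 and TBXAS1 by 0.96, and LTA4H fell by 0.73. Of this list PLA2G4A alone was called between the oils, at -1.23, slick oil minus source oil (adjusted p = 1.67e-07). CBR1 was higher in all 5 oil comparisons, by 1.03 to 1.53.

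In the other lists 0 genes were higher and 10 lower in slick oil than in source oil among 60 tested. Their share, 16.7%, was near the 16.0% of all genes called in either direction. By direction it lay above the 8.68% of all genes that were lower, and the 0 higher stood beside 7.33% of all genes. The chemokine-scavenging receptor ACKR3, which binds CXCL12, rose by 1.21 with source oil and 0.96 with slick oil at 72 hpf. The cytokine IL11, whose receptor signals through STAT3, rose by 2.13 and 1.49 in the same comparisons. IL11 was not tested where the controls of 72 hpf were compared with younger controls. It may have passed the filter on low counts only with the help of the oil libraries, so its rises support nothing further. Of 22 NF-kB neighbours 4 were higher and 0 lower with source oil at 72 hpf. Their share, 18.2%, was near the 20.4% of all genes called in either direction and above the 11.4% called higher. They were the ubiquitin ligase BIRC2 (0.52), the A20-binding TNIP1 (0.47), the protease MALT1 (0.91) and the kinase MAP3K14 (0.79). MAP3K14 was lower by 1.03 in slick oil than in source oil. Of 18 JAK-STAT neighbours 4 were higher and 0 lower, among them STAT6 (1.31), PIM3 (1.01) and PIM1 (0.69). Their share, 22.2%, was likewise near the 20.4% and above the 11.4%. Of 6 interferon-responsive genes 3 were higher, among them the MHC class I light chain B2M (1.07) and the immunoproteasome subunit PSMB8 (0.92).

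Markers of leukocytes were read beside these results. At 72 hpf the pan-leukocyte list, with 6 of 8 genes above 0 (LAPTM5 and ARHGDIB at 0), summed to 275 to 301 CPM in controls, 286 to 297 CPM with source oil and 246 to 260 CPM with slick oil, and 0 of its 4 tested genes were called with either oil. Macrophage markers, 6 of 11 above 0 (MARCO, CD68, C1QA, C1QB and C1QC at 0), summed to 131 to 143, 161 to 171 and 97.4 to 113 CPM. Within them the pore-forming MPEG1 rose by 1.6 and the cathepsin CTSS by 1.34 with source oil, while the receptor CSF1R did not pass (0.34, adjusted p = 0.235). Neutrophil markers, 9 or 10 of 11 above 0, summed to 47.6 to 51.6, 103 to 130 and 42.1 to 69.8 CPM, with CSF3R at 0 in each group. MMP9 (3.01) and the oxidase subunit CYBB (1.27) were higher with source oil. The granule enzyme MPO (-0.12, adjusted p = 0.708) and CYBA (0.83, adjusted p = 0.122) did not pass. MMP9 was not tested with slick oil at 48 hpf or between the control series at that age. It may have passed the filter at 72 hpf only with the help of the oil libraries, so its rise supports nothing further. Lymphocyte markers had 5 of 13 genes above 0, with CD3E, CD3D, CD4, CD8A, RAG2, CD79A and CD79B at 0, and summed to 31.6 to 39.8, 26.8 to 34.1 and 34.3 to 42.1 CPM. The macrophage and neutrophil sums were thus higher in source-oil libraries than in controls at 72 hpf, and the neutrophil sum includes MMP9. In the contrast of the oils 3 of 5 macrophage markers tested were lower with slick oil, as were 2 of 4 pan-leukocyte markers and 2 of 4 neutrophil markers. In that contrast 1 neutrophil marker and 1 of 2 lymphocyte markers were higher. The part of leukocytes in the members' results was not tested.

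Markers of other tissues also differed between the groups at 72 hpf. Neuron markers had 4 or 5 of 7 above 0 (STMN2 and NEFM at 0 in each group). They summed to 581 to 661 CPM in controls, 472 to 508 CPM with source oil and 532 to 578 CPM with slick oil. Of 4 tested, 2 were lower with source oil, 1 was lower with slick oil and 2 were higher in slick oil than in source oil. Liver markers, 5 of 8 above 0 (APOA1, TF and TTR at 0), summed to 631 to 886, 602 to 780 and 379 to 509 CPM. Of 5 tested, 4 were lower with slick oil, 1 was higher and 2 were lower with source oil, and 3 were lower in slick oil than in source oil. Skeletal muscle markers, 6 of 7 above 0 (ACTA1 at 0), summed to 40800 to 50700, 46700 to 54000 and 36700 to 38300 CPM, with 1 of 5 tested higher with source oil, 2 lower with slick oil and 3 lower in slick oil than in source oil. Epidermis markers, 6 of 8 above 0 (KRT5 and KRT18 at 0), summed to 749 to 821, 890 to 946 and 672 to 802 CPM, with 2 of 6 tested higher with source oil, 1 lower with slick oil and 1 lower in slick oil than in source oil. Beside these counts and those of the leukocyte lists, 20.4% of all genes were called with source oil and 18.6% with slick oil. Between the oils 16.0% were called. The part of these tissues in the members' results was not tested.

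The authors' deposited table of fold changes, from their own test, has 11 members past an adjusted p of 0.05 for source oil at 72 hpf, 4 for source oil at 24 hpf, 3 for slick oil at 48 hpf and 3 for slick oil at 72 hpf, namely PTGS1, STAT3 and CISH. For slick oil at 24 hpf it has 0. All members past that threshold were also called here in the same direction. For slick oil at 24 hpf the deposited control columns include a library named as a slick-series control of 48 hpf. The fit here left that library out, so at this age the authors' result and the one here rest on different libraries. The calls made here in addition were NFKB2 and CEBPB (source oil, 72 hpf), PTGS2 (slick oil, 24 and 72 hpf) and CXCR4 (slick oil, 72 hpf).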

How the data were processed

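RNA libraries of pooled whole red drum embryos and larvae (29 libraries, 10 groups) were read from 6 deposited tables. The deposited library columns hold raw counts: all values are whole and library totals differ. Per the file headers, each table also carries the authors' log2 fold changes, p-values and adjusted p-values, a mean signal per gene and a test score. The submitters' processing notes name HTSeq, DESeq2 and hg19. The aligner, the reference and the way in which fish reads came to human-style symbols were not given in the sources used here, so a symbol may merge fish paralogs and has no fish genome position. Of the 37 library columns, 1 bore a library name that another column of its table, that of source oil at 24 hpf, already had, and stayed out of every fit.

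Each comparison was fitted on all genes with edgeR 4.0.16 and limma 3.58.1 in R 4.3.3: TMM scaling, filterByExpr, the quasi-likelihood F test and Benjamini-Hochberg adjustment over all genes tested, called at an adjusted p under 0.05. CPM values were TMM-scaled over the 6 libraries of source oil and control at 24 hpf and over the other 23 together. SDs are between libraries and intervals are 95%. The labels' numbers could be linked to columns at 24 hpf alone. Scripts were tested on simulated counts. DESeq2 1.42.0, its size factors, no filter, a replicate block at 24 hpf, the 6 oil libraries alone and leaving out each library were the alternatives. The comparison of the control series at 48 hpf, and a block on header numbers at 48 and 72 hpf, were added after seeing the data. The members, the pathway lists and the markers were chosen with earlier results of these data known. Members called in an oil comparison were given in full (up to 12) or by range, and from each list up to 4 other called genes with the smallest adjusted p, apart from genes that are not reported here. Source-oil animals of 48 hpf and slick-series controls of 72 hpf were not analysed here.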

Additional observations from a re-analysis of the deposited data

Results flagged for a closer look

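In 10 members the responses to the oils at 72 hpf differed by a direct test of slick-oil against source-oil libraries (edgeR, joint fit of 9 libraries, 3 per group). On the log2 scale, slick oil minus source oil, the differences were -2.14 for PTGS2, -1.7 for SOCS3, -1.65 for REL, -1.22 for CXCR4, -1.04 for NFKBIA, -0.9 for PTGS1, -0.9 for RELB, -0.66 for JAK1, -0.61 for NFKB2 and -0.57 for STAT3. The oils were given at different concentrations and in different series, and the slick-oil columns carry a library numbering of their own. Oil, concentration, series and what the numbers stand for therefore cannot be told apart.

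CISH had a slick-oil response at 72 hpf that differed from that at 48 hpf by -1.54 on the log2 scale, with controls from different series at the 2 ages; those series differed in CISH at 48 hpf by -1.46.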

How the results depend on the processing

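Of 54 called member results, 39 kept the call under every alternative run and 15 lost it under at least 1; 0 of 560 alternative values of called results reversed and 48 lost the call, while 17 of 151 uncalled results were called under at least 1 alternative. Leaving out each library in turn, the number of members called ranged from 4 to 5 (source oil, 24 hpf), 12 to 15 (source oil, 72 hpf), 0 to 2 (slick oil, 24 hpf), 3 to 3 (slick oil, 48 hpf), 3 to 7 (slick oil, 72 hpf), 8 to 13 (slick against source oil), 1 to 2 (slick oil, 72 against 48 hpf), 1 to 7 (controls, 24 to 48 hpf), 8 to 12 (controls, 48 to 72 hpf) and 0 to 2 (control series at 48 hpf). With DESeq2 the members called were 3 for slick oil at 72 hpf, 2 for controls from 24 to 48 hpf, and 0 for slick oil at 72 against 48 hpf and for the control series at 48 hpf, where DESeq2 gave CISH no adjusted p; by edgeR 1 member was called in each of those last comparisons.

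Counts over all genes moved by more than 1.5 times from 531 (source oil, 24 hpf) to 351 with DESeq2, 344 without oil replicate 2 and 852 with the block; from 1833 (source oil, 72 hpf) to 1177 and from 1673 (slick oil, 72 hpf) to 957 with DESeq2; from 196 (slick oil, 24 hpf) to 105 with DESeq2 and 63 to 489 without single libraries; from 244 (slick oil, 48 hpf) to 102 to 941, from 674 (72 against 48 hpf) to 351 to 1191, from 405 (control series) to 96 to 1202 and from 1470 (slick against source oil) to as few as 966 without single libraries. The cause was not tested.

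At 24 hpf deviations of same-numbered source-oil and control libraries correlated weakly across genes, at 0.136, 0.0157 and 0.123. Those of the slick series correlated at -0.0184, where 2 pairs can give only 1 value. The block raised the count over all genes for source oil, so whether the numbers pair the libraries was not settled. With the numbers as a block 5 members were called for source oil (4 without it, CEBPD being added at adjusted p = 0.0128) and 1 for slick oil. At 48 and 72 hpf the columns carry none of the labels' numbers, and a block on the numbers in their headers (C7 with T7, and so on) was added after seeing the data. Same-numbered libraries there had correlations from -0.241 to 0.109. With that block the members called were 13 (source oil, 72 hpf), 3 (slick oil, 48 hpf), 5 (slick oil, 72 hpf), 12 (slick against source oil, CXCL12 and CEBPB being added at adjusted p = 0.0487 and 0.0495), 1 (72 against 48 hpf) and 0 (control series, CISH at adjusted p = 0.0697). Counts over all genes fell to 98 (slick oil, 48 hpf), 390 (72 against 48 hpf) and 51 (control series). Members with under about 10 counts a library are limited by depth.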
